A study of Mus musculus with 12 samples.

Results

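A set of 10 islet transcripts with a wide spread between samples of the same genotype was read array by array. They are Nnt, Alad, Gsta2, Pttg1, Ccnb1ip1, Rpgrip1, Gbp2b, Wdfy1, Defb1 and Gpnmb. They were chosen by the spread of their levels between arrays of the same group, with no numeric threshold and with variable strain background in mind. That spread is therefore a description here and carries no test. Every probe set (a group of short probes for 1 transcript) whose only gene symbol is one of these 10 was taken, which gave 22 of the 45141 probe sets of the array. Of these, 18 had a mean at or above the level filter of 3.43 used for testing, and 4 lay under it. Each of the 10 genes kept at least 1 probe set above the filter and was tested. The genes are 10 of 17097 with a named probe set.

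RNA came from islets, the endocrine clusters that hold insulin-secreting beta cells, of mice aged 12 weeks on standard chow. Affymetrix arrays were run for 4 groups of 3. The groups were wild type mice (WT), transgenic mice that express human amylin, the islet amyloid polypeptide (hIAPP-Tg), mice lacking the beta cell protease BACE2 (BACE2-KO), and mice with the transgene and without BACE2 (hIAPP-TgxBACE2-KO). The labels give every group, WT included, the strain B6;129P2-Bace2tm1Bdes/J, a name that joins C57BL/6 with 129P2. The labels do not state the promoter of the transgene, how the mice were bred or how many were used per array. P-values therefore measure the spread between these arrays. No genotype at any of the 10 genes was measured, so the background of a mouse cannot be read from these values.

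Inbred mouse strains differ in many transcripts through deletions, duplications and sequence variants close to the gene. When a line made in 129P2 stem cells is crossed to C57BL/6, siblings can inherit either version, and genes beside the targeted locus often keep the stem cell version. Nnt is the best known example in islet research, because the C57BL/6J substrain carries a deletion within it. Alad lies in a stretch that is duplicated in some inbred strains.

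The arrays shared 1 scale, with medians from 4.22 to 4.35. No array was a copy, since any pair shared at most 2.21% identical values. Bace2 itself had a mean of 11.09 ± 0.16 in WT, 10.94 ± 0.08 in BACE2-KO and 10.85 ± 0.17 in hIAPP-TgxBACE2-KO arrays (SD, n = 3). Its probes may lie outside the deletion, so this checks nothing and the genotypes rest on the labels. The mean of 3 Y-linked transcripts lay between 7.31 and 7.66 on every array and Xist between 3.23 and 3.91, so these transcripts did not divide the arrays. The mean of 10 beta cell markers was between 10.53 and 11.29, as the tissue label says. Acinar (exocrine) markers were also high, with array means of 15 genes from 9.06 to 11.66. An array reads a whole islet sample, in which fewer cells of a type and less RNA per cell cannot be told apart.

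**Figure D1:**
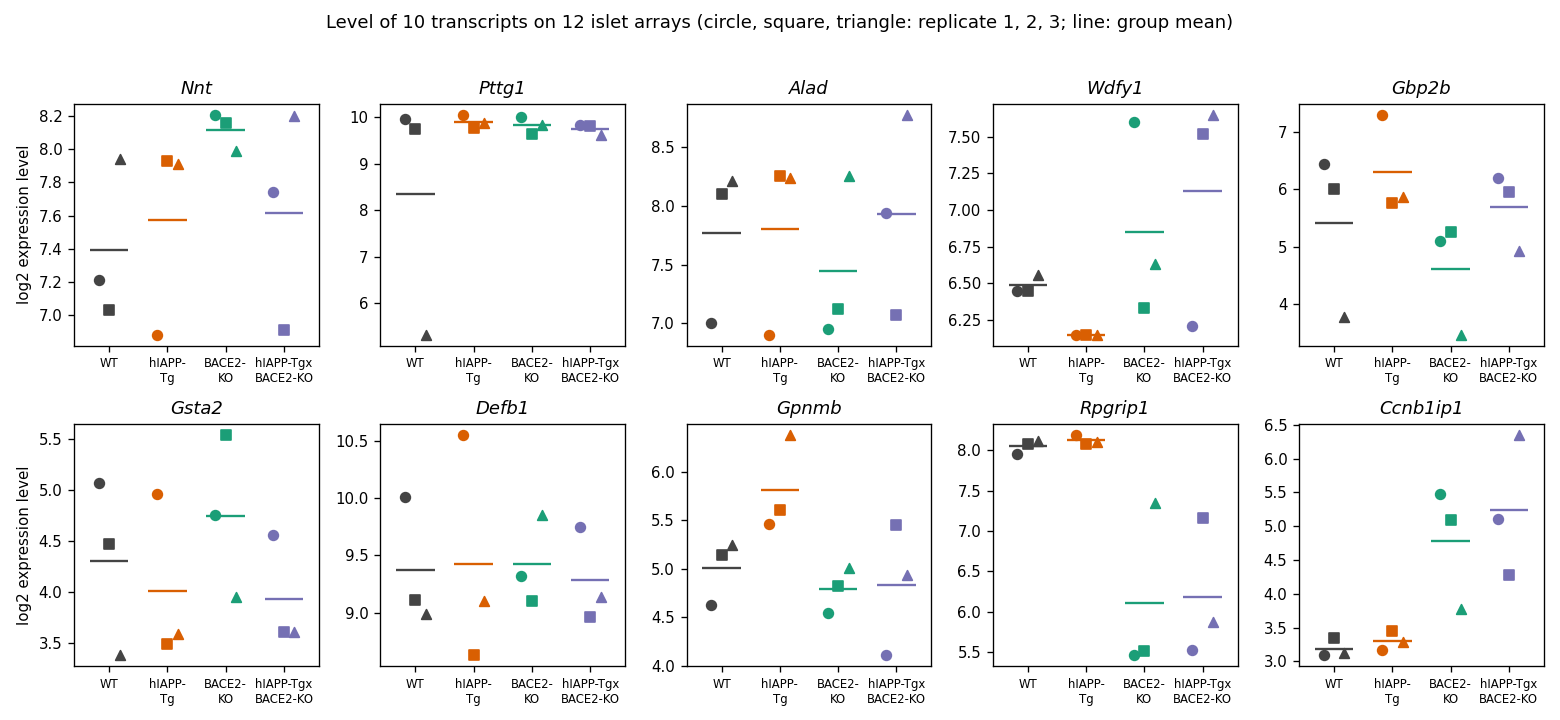
Level of each of the 10 transcripts (log2 expression, best-expressed probe set) on the 12 arrays. Circles, squares and triangles are replicates 1, 2 and 3 and lines are group means. Pttg1 is low on a single WT array, Alad forms a low set of 5 arrays and a high set of 7, and Rpgrip1 is lower and Ccnb1ip1 higher on all 6 arrays without BACE2.

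Within-group spread was summarised as the pooled standard deviation (SD) over the 4 groups, in log2 units. Over the 12825 genes tested its median was 0.17 and its 95th percentile 0.40. Pttg1 had the widest spread of the 10 at 1.32, rank 21 of all tested genes, and Gpnmb the narrowest at 0.47, rank 418. Gbp2b stood at 1.03, Gsta2 at 0.77, Alad at 0.76, Ccnb1ip1 and Rpgrip1 at 0.69, Defb1 at 0.64, Wdfy1 at 0.52 and Nnt at 0.51. These values chose the genes and are given as a description. A single array carried much of the spread of Pttg1, whose pooled SD was 0.15 without WT replicate 3.

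The stated rule used the spread within groups, and the genes were picked with earlier results of these data known. The wide spread enlarges the standard errors (SE) of differences between genotypes. A linear model with a mean for each group was fitted with limma over all 12 arrays and all 12825 genes, and a gene was called at a Benjamini-Hochberg adjusted p under 0.05. In the test of any difference among the 4 groups, 0 of the 10 genes were called, against 0.179% of all genes, and 3 had an unadjusted p under 0.05 (8.26% of all genes). In hIAPP-Tg against WT 0 of 10 were called (background 0.0156%), with 1 at an unadjusted p under 0.05 (4.52% of all genes). BACE2-KO against WT called 0 of 10 (background 0.125%), with 2 at an unadjusted p under 0.05 (6.28% of all genes). For hIAPP-TgxBACE2-KO against hIAPP-Tg these numbers were 0 and 4 (background 0.101% and 8.37%). Against BACE2-KO the double group had 0 and 0 (background 0% and 4.44%), and against WT 0 and 2 (background 0.133% and 8.43%). The interaction of transgene and BACE2 loss had 0 and 0 (background 0.0078% and 2.4%), and the transgene averaged over BACE2 status 0 and 0 (background 0.0078% and 7.59%). BACE2 loss averaged over the transgene called 2 of 10, Rpgrip1 (lower) and Ccnb1ip1 (higher), against 0.92% of all genes, 0.413% higher and 0.507% lower. Of these 2, Ccnb1ip1 entered the test only through the arrays without BACE2, where it is high, so its call is only a description. Unadjusted, 4 of 10 were under 0.05 (11.4% of all genes). Several of these comparisons share WT or other arrays. Both averaged comparisons were added after the levels of these genes had been seen. The median difference of the 10 genes was 0.07 for BACE2 loss averaged, with 5 of 10 higher, and that of all genes 0.02. Groups did not overlap for 2 of 10 genes in hIAPP-Tg against WT (9.16% of all genes), 3 in BACE2-KO against WT (12.9%), 4 in hIAPP-TgxBACE2-KO against hIAPP-Tg (11.1%), 0 against BACE2-KO (9.68%) and 2 against WT (14.9%).

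Rpgrip1 and Ccnb1ip1 were the 2 genes called for BACE2 loss, in opposite directions, Ccnb1ip1 as a description only. Rpgrip1 encodes a protein that anchors the retinitis pigmentosa GTPase regulator at the base of cilia and is known from photoreceptors. Its levels were 7.96, 8.08 and 8.11 on WT arrays and 8.19, 8.08 and 8.10 on hIAPP-Tg arrays. They were 5.46, 5.51 and 7.35 on BACE2-KO arrays and 5.53, 7.16 and 5.87 on hIAPP-TgxBACE2-KO arrays. All 6 arrays without BACE2 lay under all 6 with it, and among them 4 were at 5.87 or under and 2 were at 7.16 or above. Rpgrip1 fell by 1.94 with BACE2 loss averaged over the transgene (SE 0.32, adjusted p = 0.0164 with limma, lower on 6 of 6 arrays). Within single comparisons it differed by -1.94 in BACE2-KO against WT (SE 0.46, adjusted p = 0.232) and by -1.94 in hIAPP-TgxBACE2-KO against hIAPP-Tg (SE 0.46, adjusted p = 0.237), and neither passed. Over all genes, 0.639% were lower on the 6 BACE2-deficient arrays than on each of the other 6.

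Ccnb1ip1, also known as HEI10, encodes an E3 ubiquitin ligase that is needed for crossovers in meiosis. It stood at 3.09, 3.34 and 3.13 on WT arrays and at 3.16, 3.45 and 3.29 on hIAPP-Tg arrays. BACE2-KO arrays had 5.48, 5.09 and 3.78, and hIAPP-TgxBACE2-KO arrays 5.10, 4.28 and 6.35. The 6 arrays with BACE2 stood at or close to the filter (3.43), too dim to resolve a low level, and the 6 without it lay above them. Ccnb1ip1 differed by 1.77 with BACE2 loss averaged over the transgene (SE 0.33, adjusted p = 0.0264 with limma, higher on 6 of 6 arrays). The group means with BACE2, 3.19 and 3.30, lie under the filter, so the gene entered the test only through the arrays where it is high, and its call is given as a description whose size is uncertain. With no filter on level the adjusted p was 0.0239. It differed by 1.60 in BACE2-KO against WT (adjusted p = 0.415) and by 1.94 in hIAPP-TgxBACE2-KO against hIAPP-Tg (adjusted p = 0.237), which did not pass. Genes higher on all 6 BACE2-deficient arrays made up 0.717% of those tested.

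Neither call held in every fit without an array. Without WT replicate 2 Rpgrip1 differed by -1.93 (adjusted p = 0.0506) and Ccnb1ip1 by 1.81 (adjusted p = 0.0622) with BACE2 loss averaged, and neither passed. That fit called 46 genes in all, against 118 with every array. Rpgrip1 passed in each of the other fits without an array, and its difference ranged from -2.25 to -1.78 over these fits. Ccnb1ip1 was also lost without WT replicate 1 or 3, hIAPP-Tg replicate 2 or 3, or BACE2-KO replicate 1 or 2. A robust variance model in limma called neither Rpgrip1 (adjusted p = 0.0563) nor Ccnb1ip1 (adjusted p = 0.0651). Ccnb1ip1 was lost with Y-linked transcripts as a covariate, where it differed by 1.72 (adjusted p = 0.0627 with limma). Those transcripts did not divide the arrays, and that fit called 62 genes in all, so the loss tells nothing about sex.

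The pair ran in opposite directions on the arrays without BACE2, but its order was not mirrored in full. BACE2-KO replicate 3 and hIAPP-TgxBACE2-KO replicate 2, the arrays with the highest Rpgrip1 among those without BACE2, had the lowest Ccnb1ip1 among them, 3.78 and 4.28. The highest Ccnb1ip1, 6.35 on hIAPP-TgxBACE2-KO replicate 3, fell on an Rpgrip1 level of 5.87. Lower Rpgrip1 levels of 5.46, 5.51 and 5.53 came with Ccnb1ip1 at 5.48, 5.09 and 5.10. Over the 12 arrays the levels had a Pearson r of -0.93, and their deviations from the group means an r of -0.80. These are descriptions of arrays that share genotype groups. On chromosome 14 in the RefSeq gene order (assembly GRCm38.p6) 13 tested genes lie between them. Ccnb1ip1 was the tested gene with the second most opposed pattern to Rpgrip1.

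**Figure D2:**
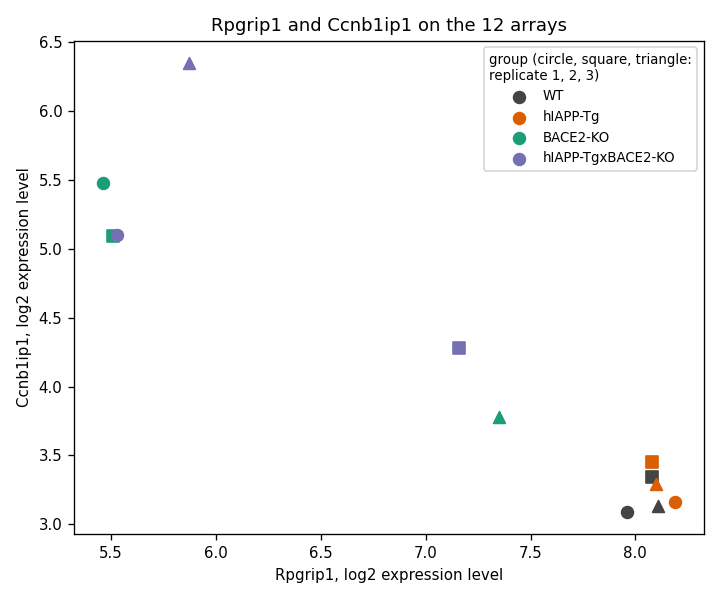
Level of Ccnb1ip1 against that of Rpgrip1 (both log2 expression), 1 point per array, coloured by group. Arrays with BACE2 sit together at Rpgrip1 levels from 7.96 to 8.19, and the 6 arrays without it spread from high Rpgrip1 and low Ccnb1ip1 to the reverse.

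Most tested neighbours of the pair did not share the pattern. Of the 20 nearest Rpgrip1 1 had an r of deviations of 0.6 or more and 2 of -0.6 or less (4.80% and 4.91% of all tested genes), and of those nearest Ccnb1ip1 2 and 0 did (2.53% and 2.35%). Ppp1r3e, which encodes a glycogen-targeting subunit of protein phosphatase 1, had the pattern most like Rpgrip1 (r = 0.95 over 12 arrays), with 23 tested genes between them. Its levels were 6.32, 6.52 and 6.45 in WT, 6.01, 6.55 and 6.72 in hIAPP-Tg, 4.88, 5.34 and 6.06 in BACE2-KO and 4.96, 5.93 and 5.12 in hIAPP-TgxBACE2-KO arrays. BACE2-KO replicate 3 and hIAPP-TgxBACE2-KO replicate 2 were again the highest of the arrays without BACE2. Rab2b, a small GTPase gene 2 steps from Rpgrip1, ran the other way, from 4.90 to 5.70 with BACE2 and from 5.68 to 6.69 without it. Armh4, 2 steps from Ccnb1ip1, was among the 3 genes most like it (r = 0.92), but lay between 3.18 and 4.01, near the filter level. The other genes most like Rpgrip1 were Snapc2 (r = 0.94) on chromosome 8 and Myo15b (r = 0.91) on chromosome 11, and those most like Ccnb1ip1 were Cdh9 (r = 0.93) on chromosome 15 and Abcb6 (r = 0.90) on chromosome 1. Of the 10 genes most like Rpgrip1 1 lay on chromosome 14, which holds 3.26% of tested genes, and of the 10 most opposed 2.

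Rpgrip1 has 4 probe sets, of which only the one described lies above the filter. The other 3 have means of 3.05, 2.88 and 3.23 and no shared pattern with it (r of deviations from -0.26 to 0.17), so the difference rests on a single probe set. With the mean of all 4 the averaged difference was -0.49. Rpgrip1 and Supt16, a histone chaperone gene, overlap at their ends in the RefSeq table, and 2 further probe sets carry both symbols. On the brighter of these the levels were 8.63, 8.51 and 8.55 in WT, 8.82, 8.53 and 8.58 in hIAPP-Tg, 9.84, 9.74 and 9.20 in BACE2-KO and 9.74, 9.15 and 9.70 in hIAPP-TgxBACE2-KO arrays. They were higher on all 6 arrays without BACE2, opposite to Rpgrip1, and BACE2-KO replicate 3 and hIAPP-TgxBACE2-KO replicate 2 were once more nearest to the arrays with BACE2. On the dimmer set the groups overlapped, with 6.35 on BACE2-KO replicate 3 and 6.75 on hIAPP-Tg replicate 1. Which of both genes these probes read cannot be told apart here.

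The stretches before the starts of Rpgrip1 and Ccnb1ip1 are shown because the genes moved in opposite directions on the same arrays. Each is the 250 bases before the RefSeq start, read 5′ to 3′ along the gene's strand, in GRCm38.p6. Rpgrip1 lies on the plus strand of chromosome 14 (chr14:52110653-52110902) and Ccnb1ip1 on the minus strand (chr14:50795729-50795978). Capitals mark matches, on either strand, to the CCAAT box, the GC box (GGGCGG), the TATA box (TATAAA), the E-box CACGTG and the core of the interferon-stimulated response element, which is GAAA repeated after any 2 bases.
Rpgrip1: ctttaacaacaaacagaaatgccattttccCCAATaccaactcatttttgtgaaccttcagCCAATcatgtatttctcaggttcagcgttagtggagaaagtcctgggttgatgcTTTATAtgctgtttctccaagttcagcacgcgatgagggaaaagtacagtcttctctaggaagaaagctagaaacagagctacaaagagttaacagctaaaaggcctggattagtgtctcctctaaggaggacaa
Ccnb1ip1: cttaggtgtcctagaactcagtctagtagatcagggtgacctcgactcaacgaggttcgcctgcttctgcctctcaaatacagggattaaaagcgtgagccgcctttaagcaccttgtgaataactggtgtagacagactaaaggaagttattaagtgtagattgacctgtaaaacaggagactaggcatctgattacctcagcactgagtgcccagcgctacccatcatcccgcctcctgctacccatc
The Rpgrip1 stretch held CCAAT at 2 places and TATAAA at 1, and the Ccnb1ip1 stretch held 0 of these motifs. Among 32851 stretches of the same length before RefSeq starts, 33.9% held CCAAT, 32.7% GGGCGG, 12.4% TATAAA, 6.02% CACGTG and 2.98% the interferon element core. These matches are letters in the reference strain and show no binding.

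Partners of both proteins were read from lists of related genes. Of 14 tested genes of the RPGR complex and the ciliary transition zone, 0 were called in any comparison, and Cc2d2a and Tctn3 had the smallest unadjusted p among groups (0.0184 and 0.0430 in the F test of any difference). The median of that list with BACE2 loss averaged was -0.01, against -1.94 for Rpgrip1. Of 11 measured meiotic crossover genes (19 listed) only 5 were above the filter and 0 were called; Syce1, a synaptonemal complex gene, lay from 2.78 to 3.36 on BACE2-KO arrays and from 3.71 to 4.67 on WT arrays (adjusted p = 0.398 in the F test).

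Alad and Nnt encode metabolic enzymes, and both were split into high and low arrays within several groups. Alad encodes delta-aminolevulinate dehydratase, an early enzyme of heme synthesis. Its levels were 7.0, 8.10 and 8.21 in WT, 6.90, 8.26 and 8.24 in hIAPP-Tg, 6.95, 7.12 and 8.26 in BACE2-KO and 7.94, 7.07 and 8.78 in hIAPP-TgxBACE2-KO arrays. The widest gap in the ordered values lay between 7.12 and 7.94, with 5 arrays under it and 7 above it, and every group had arrays on both sides. The lower arrays were replicate 1 of WT, hIAPP-Tg and BACE2-KO and replicate 2 of BACE2-KO and hIAPP-TgxBACE2-KO. Alad differed by 0.03 in hIAPP-Tg against WT and by -0.33 in BACE2-KO against WT (SE 0.50 for each, adjusted p = 0.996 and 0.997), which is less than the spread within the groups. A further probe set for Alad had a lower mean (5.83) and an r of 0.97 between deviations from the group means. The same 5 arrays were its lowest, from 4.81 to 5.58. Its widest gap lay between 4.83 and 5.26, with 2 arrays below and 10 above, so the split into 5 and 7 was less sharp there. Within groups Alad ran against the means of 15 acinar (r of deviations -0.65) and 14 proliferation markers (-0.62) and with 14 endothelial markers (0.64). It ran most closely against the mean of 7 defensins and antimicrobial genes (-0.86). The part of these cells and genes in the split was not tested.

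Some genes beside Alad on chromosome 4 moved with it and some against it. Hdhd3, a haloacid dehalogenase-like hydrolase gene and its next tested neighbour, was the most alike of all 12825 genes (r = 0.92). Hdhd3 stood at 4.35, 5.16 and 5.39 in WT, 4.41, 4.83 and 5.07 in hIAPP-Tg, 4.21, 4.43 and 5.09 in BACE2-KO and 4.83, 4.51 and 5.94 in hIAPP-TgxBACE2-KO arrays. The 5 arrays with low Alad were also the 5 lowest for Hdhd3, at 4.51 or less. Col27a1, a fibrillar collagen gene 6 steps away, moved with Alad within groups (r of deviations 0.93), from 4.88 on WT replicate 1 to 6.25 and 6.34 on the other WT arrays. Cdc26, an anaphase-promoting complex gene 5 steps to the other side, ran against it (r of deviations -0.87), at 8.67 on WT replicate 1 and 8.11 and 8.07 on the others. Wdr31, 3 steps away, also ran against it (-0.90), and Mup3, 10 steps away, had -0.67. Of the 20 nearest tested genes 2 had an r of 0.6 or more and 3 an r of -0.6 or less, where 5.19% and 6.05% of all tested genes did. Ankrd13a (r = 0.89) on chromosome 5 and Spry1 (r = 0.87) on chromosome 3 were the next most alike.

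The stretches before Alad (chr4:62520064-62520313, minus strand) and Hdhd3 (chr4:62502201-62502450, minus strand) are shown as neighbours whose levels moved together, in GRCm38.p6 with the same capitals.
Alad: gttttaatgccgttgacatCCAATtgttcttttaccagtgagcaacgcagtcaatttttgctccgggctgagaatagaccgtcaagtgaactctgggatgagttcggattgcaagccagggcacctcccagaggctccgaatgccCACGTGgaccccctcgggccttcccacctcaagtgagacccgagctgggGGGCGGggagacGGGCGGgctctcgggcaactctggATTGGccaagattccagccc
Hdhd3: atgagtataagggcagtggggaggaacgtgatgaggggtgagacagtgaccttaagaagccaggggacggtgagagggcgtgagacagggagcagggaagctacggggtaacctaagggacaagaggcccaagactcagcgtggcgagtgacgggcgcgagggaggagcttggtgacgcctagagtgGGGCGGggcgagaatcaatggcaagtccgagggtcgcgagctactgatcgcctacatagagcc
They held GGGCGG at 2 places and 1, and Alad also held CCAAT at 2 places and CACGTG at 1. RefSeq gives a further start for Alad, which is not shown.

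Of 13 tested genes of heme synthesis and breakdown 0 were called in any comparison, and their median with BACE2 loss averaged was -0.02. Abcb6, a porphyrin transporter gene, had the smallest p in the F test (adjusted p = 0.425), with 6.41 to 6.56 on arrays with BACE2 and 6.57 to 7.04 on those without. Uros, an enzyme of the same pathway, lay between 8.22 and 8.58 on all 12 arrays, a range of less than 1 log2 unit, while Alad ranged over 1.88.

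Nnt encodes nicotinamide nucleotide transhydrogenase, which makes NADPH at the inner mitochondrial membrane. It stood at 7.21, 7.03 and 7.94 in WT, 6.88, 7.93 and 7.91 in hIAPP-Tg, 8.21, 8.16 and 7.99 in BACE2-KO and 7.74, 6.91 and 8.20 in hIAPP-TgxBACE2-KO arrays. Between 7.21 and 7.74 lay the widest gap, with 4 arrays below and 8 above. The 4 low arrays were WT replicates 1 and 2, hIAPP-Tg replicate 1 and hIAPP-TgxBACE2-KO replicate 2, and all 3 BACE2-KO arrays were high. The BACE2-KO arrays did not overlap WT, which held for 12.9% of all genes, and the difference of 0.73 (SE 0.34, adjusted p = 0.802) did not pass. Another Nnt probe set gave the same 4 low arrays (r of deviations 0.96). Within groups Nnt ran against the means of 12 duct markers (r of deviations -0.81), 12 stellate markers (-0.80) and 15 macrophage markers (-0.65), and with 10 beta cell markers (0.67). Of the low arrays hIAPP-TgxBACE2-KO replicate 2 had the highest duct, stellate and macrophage means of all, 7.93, 6.87 and 6.94. These means were 7.80, 6.43 and 6.80 on hIAPP-Tg replicate 1, but 7.42, 5.75 and 6.27 on WT replicate 1 and 7.49, 6.21 and 6.14 on WT replicate 2. With high Nnt, BACE2-KO replicate 3 had a duct mean of 7.82 and hIAPP-Tg replicate 3 a macrophage mean of 6.71. The part of these cells in the Nnt split was not tested.

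Lpl (r = 0.86), Dcaf11 (r = 0.85) and Mccc2 (r = 0.83) were the genes most like Nnt, and Mccc2, a mitochondrial carboxylase subunit of leucine breakdown, lies on the same chromosome 13 with 63 tested genes between. Among its 17 nearest tested genes, 0 reached an r of 0.6 (4.16% of all tested genes did), and the chemokine gene Ccl28, 3 steps away, had -0.67. Ccl28 was 8.42, 8.47 and 7.60 in WT and 6.07, 7.06 and 7.31 in BACE2-KO arrays. Of 14 tested genes of mitochondrial NADPH supply and peroxide defence 1 was called, with BACE2 loss averaged, where 0.92% of all genes were. This was Me1, the cytosolic malic enzyme, which rose by 0.27 (SE 0.05, adjusted p = 0.0362), from 8.34 to 8.52 on arrays with BACE2 to 8.59 to 8.76 on those without. Nnt did not follow it, with low values on both sides.

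**Figure D3:**
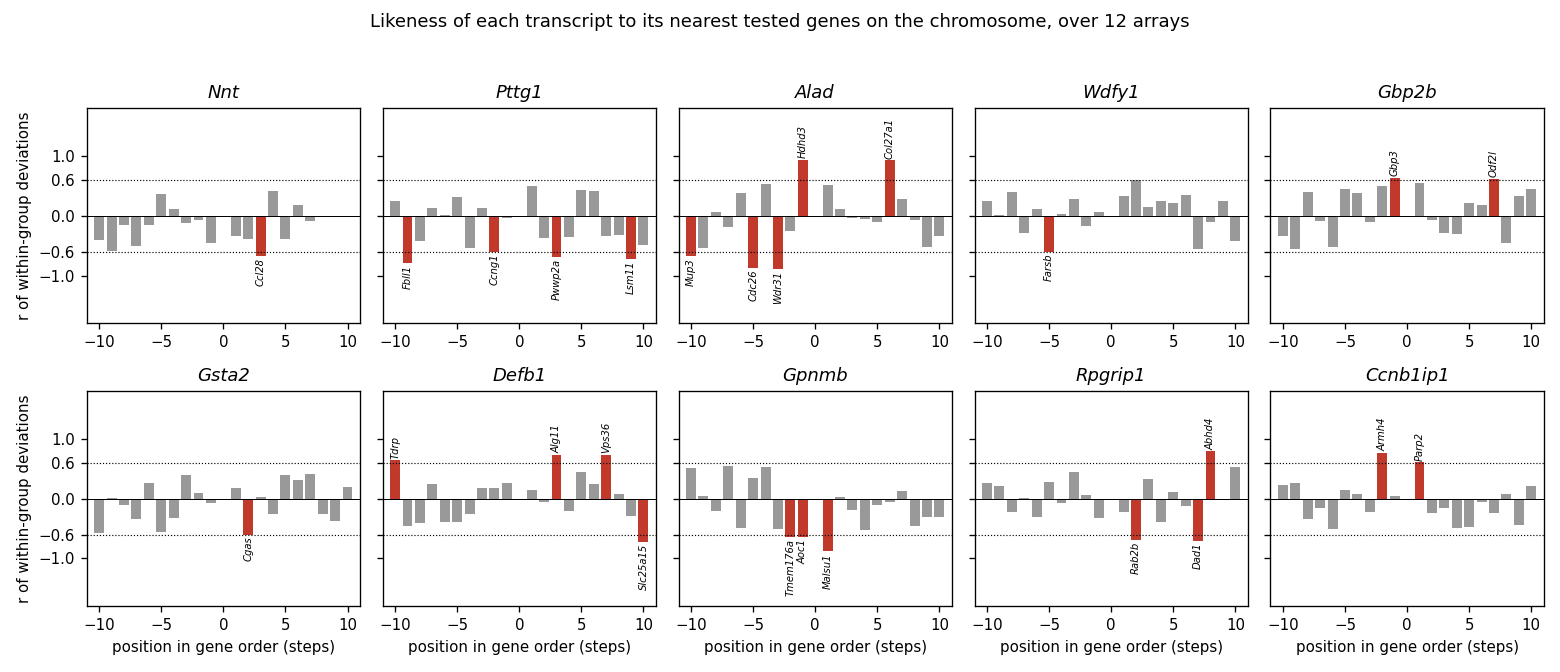
Pearson r, over 12 arrays, between the deviations from the group means of each transcript and those of its nearest tested genes, by steps in gene order on the chromosome (negative steps lie before it). Red bars reach 0.6 in size, and Alad has the largest, with Hdhd3 at 0.93 on its next step and Wdr31 at -0.90.

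Pttg1 encodes securin, which holds the protease separase inactive until chromosomes part at anaphase. On its brightest probe set it stood at 9.97, 9.74 and 5.32 in WT, 10.06, 9.78 and 9.87 in hIAPP-Tg, 10.01, 9.64 and 9.84 in BACE2-KO and 9.83, 9.81 and 9.62 in hIAPP-TgxBACE2-KO arrays. WT replicate 3 alone was low, 4.30 under the next array, and the other 11 lay within 9.62 to 10.06. A further probe set showed the same array at 4.32 and the others from 7.19 to 7.68. The dimmest, with a mean of 3.81 near the filter, had WT replicate 3 at 3.51, inside the range of the others. No comparison with WT was called. Pttg1 differed by 1.56 in hIAPP-Tg against WT (SE 0.86, adjusted p = 0.950) and by 1.49 in BACE2-KO against WT (SE 0.86, adjusted p = 0.908).

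The partners of securin did not share that drop. Of 15 tested genes of cohesin cleavage and anaphase onset 0 were called in any comparison. Their mean was 7.33 on WT replicate 3, against 7.46 and 7.38 on the other WT arrays. Plk1, a mitotic kinase gene, stood at 3.81 there against 4.06 and 3.93, and Stag2, a cohesin subunit gene, at 9.69 against 9.92 and 9.72. The mean of 14 proliferation markers was 4.78 on that array and 4.91 to 4.93 on the other WT arrays. WT replicate 3 was also the array with the lowest acinar mean (9.06 against 11.66 and 11.10 in WT). Within groups Pttg1 had an r of deviations of 0.82 with the acinar mean. It had -0.80 with the mean of 14 genes of mitochondrial NADPH supply and peroxide defence. Much of the spread of Pttg1 lies on WT replicate 3, and the part of these genes and cells in its value there was not tested. The genes most like Pttg1 by Pearson r, Kdm8 (0.86), Cilk1 (0.84) and Mdp1 (0.84), were each lowest on this array too, and their Spearman rho was 0.27, 0.18 and 0.59. Of its 20 neighbours on chromosome 11, 4 had an r of deviations of -0.6 or less, Fbll1, Ccng1, Pwwp2a and Lsm11 (3.42% of all tested genes did), and Pwwp2a stood at 7.54 on WT replicate 3 and from 6.86 to 7.28 elsewhere.

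**Figure D4:**
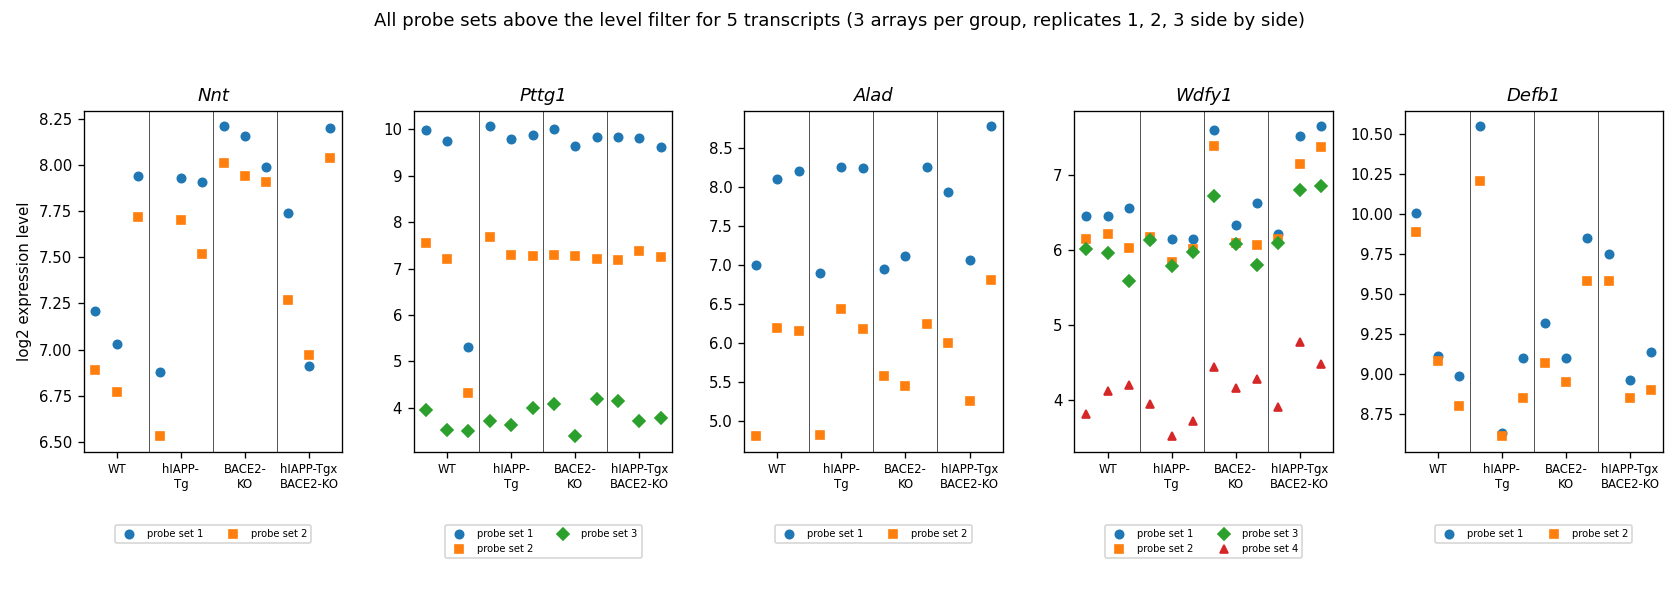
Log2 level of every probe set above the filter for Nnt, Pttg1, Alad, Wdfy1 and Defb1, with arrays by group on the horizontal axis and probe sets by colour. Both sets of Nnt, Alad and Defb1 are high and low on the same arrays, the brighter 2 of Pttg1 share the low WT array, and the dimmest of Pttg1 stays near the filter level of 3.43, at 3.39 or above.

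Wdfy1 encodes an endosomal protein with WD repeats and a FYVE domain that helps recruit the adaptor TRIF to TLR3 and TLR4. Its levels were 6.45, 6.45 and 6.56 in WT, 6.15 on all 3 hIAPP-Tg arrays, 7.60, 6.33 and 6.63 in BACE2-KO and 6.21, 7.52 and 7.65 in hIAPP-TgxBACE2-KO arrays. BACE2-KO replicate 1 and hIAPP-TgxBACE2-KO replicates 2 and 3 were high, with a gap from 6.63 to 7.52, and the other 9 arrays were low. All 3 high arrays lacked BACE2, but so did 3 of the low ones. Wdfy1 differed by 0.98 in hIAPP-TgxBACE2-KO against hIAPP-Tg (SE 0.35, adjusted p = 0.457) and by 0.67 with BACE2 loss averaged (SE 0.25, adjusted p = 0.311), and neither passed. All 4 probe sets put the same 3 arrays on top, and the dimmest, with a mean of 4.11, had an r of deviations of 0.73 with the brightest.

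The gene most like Wdfy1 was Pam (r = 0.93), which encodes the enzyme that amidates peptide hormones such as amylin. Pam also lies on chromosome 1, with 91 tested genes between. It stood at 10.97, 10.92 and 10.81 on the 3 arrays with high Wdfy1 and from 9.68 to 10.05 on the other 9. Stk25, a kinase gene of chromosome 1 chosen after its values were seen, was the most opposed (r = -0.87), at 9.28, 9.18 and 9.23 on those 3 arrays and from 9.45 to 9.71 on the others. Stk25 has 77 tested genes between it and Wdfy1. Among the 20 nearest neighbours of Wdfy1 0 reached an r of 0.6 (6.37% of all tested genes did), and Farsb had -0.60 (4.55% reached -0.6). Arhgef10l (r = 0.91) on chromosome 4 and Cdk3 (r = 0.87) on chromosome 11 were the next most alike. Of 14 tested genes of TLR3 and TLR4 signalling and FYVE proteins 0 were called in any comparison. Wdfy4 stood at 3.70, 3.63 and 4.19 in hIAPP-Tg and from 3.02 to 3.41 in WT arrays (F test adjusted p = 0.445), near the filter, and Irf3, a transcription factor of this pathway, between 7.86 and 8.20 on all arrays (F test adjusted p = 0.612).

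Gbp2b, Gsta2, Defb1 and Gpnmb are expressed in immune or epithelial cells as well, and their levels are given beside markers of those cells. Gbp2b encodes a guanylate-binding protein, an interferon-induced GTPase of cell-autonomous defence. It stood at 6.44, 6.0 and 3.78 in WT, 7.30, 5.77 and 5.86 in hIAPP-Tg, 5.11, 5.25 and 3.47 in BACE2-KO and 6.2, 5.95 and 4.93 in hIAPP-TgxBACE2-KO arrays. WT replicate 3 and BACE2-KO replicate 3 were low, under a gap from 3.78 to 4.93, and hIAPP-Tg replicate 1 was the highest. Without WT replicate 3 the pooled SD was 0.80. The differences were 0.90 in hIAPP-Tg against WT (SE 0.68, adjusted p = 0.950) and -0.80 in BACE2-KO against WT (SE 0.68, adjusted p = 0.985), within the spread.

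Rab9 (r = 0.96) on chromosome X, Ccdc51 (r = 0.88) on chromosome 9 and Siah1a (r = 0.88) on chromosome 8 were most like Gbp2b. The family member Gbp3, its next tested neighbour on chromosome 3, had an r of deviations of 0.63 and ran from 6.88 to 8.70. Odf2l, 7 steps away, had 0.63, and 6.99% of all tested genes reached 0.6 with Gbp2b. Gbp3 was not low on the same arrays to the same extent, with 7.17 on WT replicate 3 and 7.18 on BACE2-KO replicate 3. Of 12 tested guanylate-binding proteins, related GTPases and their regulators 0 were called in any comparison, and their mean was 7.01 on WT replicate 3 and 7.06 on BACE2-KO replicate 3. Lower means, such as 6.81 on BACE2-KO replicate 1 and 6.83 on hIAPP-Tg replicate 2, fell on arrays with higher Gbp2b. Gbp8 stood at 7.11, 6.87 and 6.43 in WT and 5.61, 5.85 and 6.19 in BACE2-KO arrays (F test adjusted p = 0.453), and Gbp4 between 3.78 and 4.78 (F test adjusted p = 0.476).

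The stretches before Gbp2b (chr3:142594597-142594846, plus strand) and Gbp3 (chr3:142559794-142560043, plus strand) are shown because family members are known to share interferon response elements. Letters and capitals are as above, from GRCm38.p6.
Gbp2b: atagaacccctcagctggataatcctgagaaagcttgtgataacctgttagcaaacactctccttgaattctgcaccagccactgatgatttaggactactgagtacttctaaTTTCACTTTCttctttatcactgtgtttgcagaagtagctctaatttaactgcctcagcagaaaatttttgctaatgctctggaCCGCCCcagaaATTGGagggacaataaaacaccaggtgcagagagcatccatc
Gbp3: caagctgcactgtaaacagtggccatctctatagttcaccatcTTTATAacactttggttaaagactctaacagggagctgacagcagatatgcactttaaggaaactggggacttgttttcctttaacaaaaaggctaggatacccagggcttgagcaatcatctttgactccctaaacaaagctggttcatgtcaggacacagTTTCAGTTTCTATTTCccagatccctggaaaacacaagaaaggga
The interferon element core was found at 1 place before Gbp2b and at 2 overlapping places before Gbp3, all read on the opposite strand. Gbp2b also held CCAAT and GGGCGG at 1 place each, and Gbp3 TATAAA at 1.

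Gsta2 encodes an alpha-class glutathione S-transferase, which joins glutathione to reactive compounds. Its measured probe set reads 5.07, 4.47 and 3.38 in WT, 4.96, 3.49 and 3.59 in hIAPP-Tg, 4.76, 5.54 and 3.95 in BACE2-KO and 4.56, 3.61 and 3.61 in hIAPP-TgxBACE2-KO arrays. There were 6 arrays at 4.47 or above and 6 at 3.95 or below, and every group had both. The probe set is of a type that Affymetrix marks as matching several transcripts, so related alpha-class genes may add to it. The brightest Pttg1 set and the further Defb1 set are of this type too. The further Nnt set is of a type marked for probes that may match other sequences. The other Gsta2 probe set lay under the filter, with a mean of 2.97. Gsta2 differed by 0.44 in BACE2-KO against WT (SE 0.51, adjusted p = 0.997) and by -0.29 in hIAPP-Tg against WT (SE 0.51, adjusted p = 0.966). Of 19 tested transferases and NRF2 targets 0 were called in any comparison; Mgst1, a membrane-bound transferase gene, was 6.48, 6.61 and 5.97 in WT and 7.07, 6.86 and 7.54 in BACE2-KO arrays (F test adjusted p = 0.493), and Nqo1 was 5.33, 5.55 and 5.71 against 5.98, 6.05 and 6.14 (F test adjusted p = 0.552). Nr1d2 (r = 0.89), Zfp626 (r = 0.89) and Bhlhe41 (r = 0.89) were the genes most like Gsta2. Nr1d2 and Bhlhe41 are circadian clock repressors.

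Acinar markers moved with Gsta2 and Gbp2b within groups, with an r of deviations of 0.77 and 0.92 over the 12 arrays. Pttg1 had 0.82 with them. Gsta2 also ran against the means of 14 endothelial markers (-0.74) and 13 genes induced by tissue dissociation (-0.76). Gbp2b had -0.65 with the endothelial and -0.52 with the dissociation mean. The mean of 15 of 15 measured acinar markers (of 19 listed) lay between 9.06 and 11.66 in WT, from 9.82 to 10.74 in hIAPP-Tg, from 9.95 to 11.39 in BACE2-KO and from 9.77 to 10.73 in hIAPP-TgxBACE2-KO arrays. All 15 were above the filter. In each group the acinar mean was highest on replicate 1, at 11.66 in WT, 10.74 in hIAPP-Tg, 11.39 in BACE2-KO and 10.73 in hIAPP-TgxBACE2-KO. With a replicate block the pooled SD fell from 1.03 to 0.57 for Gbp2b and from 0.77 to 0.54 for Gsta2. Acinar content and replicate number can therefore not be fully told apart here. The 6 arrays with Gsta2 at 4.47 or above were the 6 with the highest acinar means, at 10.73 or above. WT replicate 3, with the lowest acinar mean, also had the lowest Gsta2 and the second lowest Gbp2b. With the acinar mean as a covariate Gbp2b passed the F test of any difference (adjusted p = 0.0426, against 0.721 without it). That fit was 1 of the alternative settings, and its covariate comes from the same arrays and tracks Gbp2b closely. It therefore cannot test a cause, and the part of exocrine tissue or other cells in these levels was not tested.

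Defb1 encodes a beta-defensin, an antimicrobial peptide of epithelia. It stood at 10.01, 9.11 and 8.99 in WT, 10.55, 8.63 and 9.10 in hIAPP-Tg, 9.32, 9.10 and 9.85 in BACE2-KO and 9.75, 8.96 and 9.14 in hIAPP-TgxBACE2-KO arrays. WT replicate 1, hIAPP-Tg replicate 1, BACE2-KO replicate 3 and hIAPP-TgxBACE2-KO replicate 1 were the 4 highest, at 9.75 or above, 1 in each group. The group means lay within 9.28 and 9.43, and a further probe set had an r of deviations of 0.99. The smallest difference from WT was 0.05 (BACE2-KO, SE 0.42, adjusted p = 0.997). Crbn (r = 0.89), Zc2hc1a (r = 0.89) and Kiz (r = 0.88) were most like Defb1, and of its 20 neighbours on chromosome 8 Tdrp, Alg11 and Vps36 reached an r of deviations of 0.6 and Slc25a15 an r of -0.72. Over all tested genes 12.0% reached 0.6 with Defb1, so these 3 of 20 are near that share. Of 20 measured defensins and antimicrobial genes only 7 were above the filter and 0 were called; Pigr, the polymeric immunoglobulin receptor gene, ran from 5.94 to 9.70 and Slpi, a protease inhibitor gene, from 4.58 to 8.60 (F test adjusted p = 0.653 and 0.743). Markers of duct cells, the epithelium near islets, had array means of 12 genes from 6.97 to 7.93, and the arrays with high Defb1 had 7.42, 7.80, 7.82 and 7.55. The highest duct mean, 7.93, was on hIAPP-TgxBACE2-KO replicate 2, where Defb1 was low (8.96), and the r of deviations was 0.63. Defb1 ran more closely with the mean of the 12 guanylate-binding proteins, related GTPases and regulators (r of deviations 0.91), and against 10 beta cell markers (-0.69). The part of duct cells and of these genes was not tested.

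Gpnmb encodes a transmembrane glycoprotein of macrophages and pigment cells. It stood at 4.63, 5.14 and 5.25 in WT, 5.46, 5.61 and 6.38 in hIAPP-Tg, 4.54, 4.82 and 5.01 in BACE2-KO and 4.11, 5.45 and 4.94 in hIAPP-TgxBACE2-KO arrays. All 3 hIAPP-Tg arrays lay above every other array, by 0.01 over the next. Gpnmb differed by 0.81 in hIAPP-Tg against WT (SE 0.32, adjusted p = 0.950; groups did not overlap, as for 9.16% of all genes). The difference was -0.98 in hIAPP-TgxBACE2-KO against hIAPP-Tg (SE 0.32, adjusted p = 0.406), and neither passed. The interaction was -0.77 (SE 0.46, unadjusted p = 0.117 with limma).

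Macrophage markers moved with Gpnmb within groups (r of deviations 0.62), as did, more closely, the mean of 13 genes induced by tissue dissociation (0.89), which ran from 7.41 on WT replicate 1 to 8.48 on hIAPP-TgxBACE2-KO replicate 2. The part of the latter was not tested. The mean of 15 tested markers (of 18 measured) was 6.27, 6.14 and 5.91 in WT, 6.80, 6.44 and 6.71 in hIAPP-Tg, 5.89, 6.20 and 6.30 in BACE2-KO and 5.86, 6.94 and 6.31 in hIAPP-TgxBACE2-KO arrays. The 4 arrays with the highest means were also the 4 with the highest Gpnmb. With the macrophage mean as a covariate the Gpnmb difference between hIAPP-Tg and WT was 0.32. This covariate comes from the same arrays, and the part of macrophage number was not tested. Cirbp (r = 0.90), Cd53 (r = 0.87) and Mpeg1 (r = 0.85) were most like Gpnmb, and Cd53 and Mpeg1 are leukocyte and macrophage genes. Of 13 tested MITF and TFE targets and lysosomal macrophage genes 0 were called; Acp5, an acid phosphatase gene, stood at 6.99, 6.84 and 6.89 in hIAPP-Tg and from 5.97 to 6.40 in WT arrays (F test adjusted p = 0.536), and Ctsd between 9.65 and 10.11 on all arrays (0.511). Among 20 neighbours on chromosome 6, 0 reached an r of 0.6, and Tmem176a, Aoc1 and Malsu1 had -0.64, -0.64 and -0.88. Over all tested genes 13.3% reached 0.6 with Gpnmb and 8.38% reached -0.6.

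**Figure D5:**
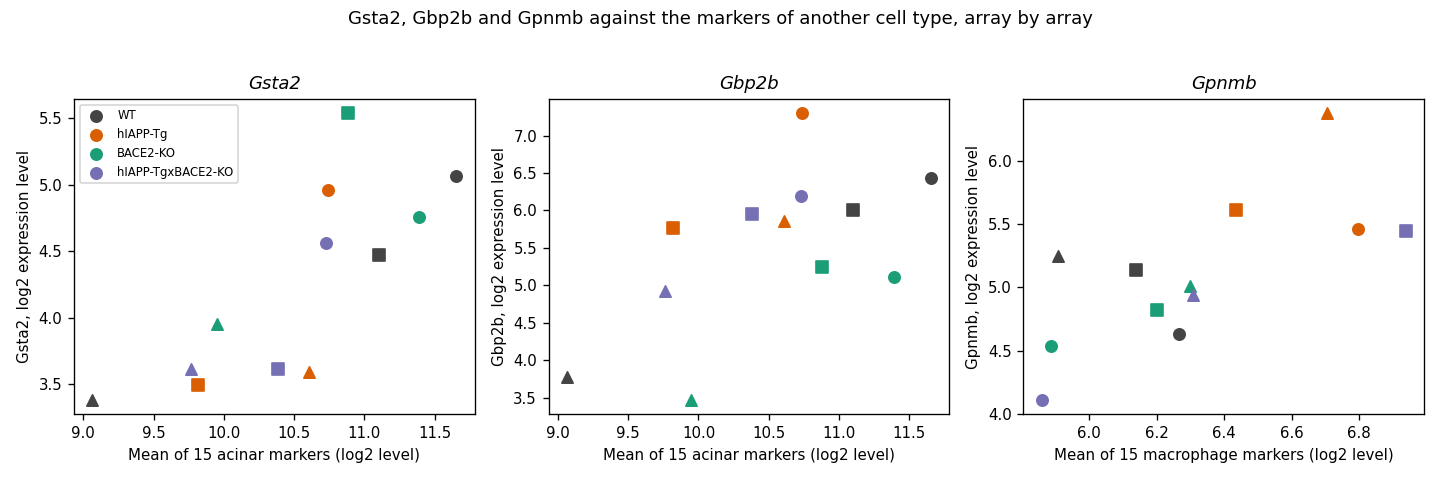
Level of Gsta2 and Gbp2b against the mean of 15 acinar markers, and of Gpnmb against the mean of 15 macrophage markers (all log2), 1 point per array, coloured by group, with circles, squares and triangles for replicates 1, 2 and 3. WT replicate 3, at an acinar mean of 9.06, has the lowest Gsta2 (3.38) and low Gbp2b (3.78), and Gpnmb is highest on hIAPP-Tg replicate 3 at 6.38.

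The low and high arrays were partly shared between genes. Within groups Gbp2b ran with Gsta2 (r of deviations 0.91) and Pttg1 (0.72) and against Alad (-0.79), and Nnt ran with Alad (0.69). Nnt was low on 4 arrays, Alad on 5, Rpgrip1 on 4 and Pttg1 on 1, and these sets were not the same. Alad and Nnt were low together on WT replicate 1, hIAPP-Tg replicate 1 and hIAPP-TgxBACE2-KO replicate 2, but WT replicate 2 was low for Nnt only and BACE2-KO replicates 1 and 2 for Alad only. Among 15 tested other transcripts known to differ between strains (of 25 listed), 0 were called in any comparison. Entpd4, a nucleotide-hydrolysing enzyme gene, stood at 7.89, 7.78 and 7.79 in BACE2-KO and from 8.18 to 8.31 in WT arrays (F test adjusted p = 0.296), and Mx1, an interferon-induced GTPase gene, between 4.40 and 5.69 (0.468).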

How the data were processed

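The deposited values are log2 expression levels for 45141 probe sets on 12 arrays, deposited by the authors after RMA (affy) normalization, as the submitters' processing notes name these tools. Their versions are not stated. Arrays hold no read depth, so their number, 3 per group, limits the precision. The platform annotation gave 28898 probe sets 1 symbol and 551 several (left unnamed), and did not list 15692. A gene was represented by its probe set with the highest mean (17097 genes), and 12825 genes at or above the 25th percentile of the means (3.43) were tested with limma 3.58.1 in R 4.3.3 (lmFit, eBayes with a variance trend, all 12 arrays, Benjamini-Hochberg adjustment, two-sided).

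The 10 genes and the related lists were chosen with earlier results of these data known. Named besides them were the 3 genes with the highest Pearson r to each over 12 arrays, neighbours in gene order (10 tested genes on each side, r of deviations of 0.6 or more in size), and up to 4 genes per list by smallest p. Gene order and promoter sequences are from RefSeq (GRCm38.p6), and 7 of 10 genes had a promoter entry. Of these steps, only the limma comparison of BACE2-KO against WT was tested on simulated data. Alternatives covered the level filter, the probe set, normalization, centring, the variance model, array weights, the groups in the fit, a replicate block, marker covariates, the threshold and each array left out. Plots were drawn with matplotlib 3.10.9.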

Additional observations from a re-analysis of the deposited data

How the results depend on the processing

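In the pairwise comparisons, the interaction and the transgene averaged over BACE2 status, 0 of the 10 genes were called under every alternative that ran, except that 1 (Rpgrip1, -2.57, adjusted p = 0.0316 with limma) was called in BACE2-KO against WT without BACE2-KO replicate 3. For the test of any difference, which called 0, the fits without an array called from 0 to 1 (Rpgrip1, without BACE2-KO replicate 3 or hIAPP-TgxBACE2-KO replicate 2), and the acinar covariate called 1 (Gbp2b). With BACE2 loss averaged, 2 genes were called (the call of Ccnb1ip1 is a description only). That count was 1 with the filter at the 50th percentile (which leaves out Ccnb1ip1) and with Y-linked transcripts as a covariate, 0 with a robust variance model, and from 0 to 2 without an array. The count over all genes in that comparison, 118, ran from 46 without WT replicate 1 to 205 with the replicate block, and the background of the other comparisons moved as well: from 4 to 36 around 16 in BACE2-KO against WT, from 3 to 29 around 13 in hIAPP-TgxBACE2-KO against hIAPP-Tg, from 0 to 34 around 17 in hIAPP-TgxBACE2-KO against WT, and from 12 to 52 around 23 in the test of any difference. No member's difference with an unadjusted p under 0.05 changed its direction. Of the 30 genes named as most alike, 5 were also among the 3 most alike by deviations from the group means and 7 by Spearman rho, so those names depend on the measure. The replicate numbers fell short of the rule for pairing, since 10 of 18 same-numbered pairs, not all, correlated over 0.1. As a hint from the data, the median r was 0.14 for these and -0.07 for other pairs, and 8 of 12 arrays correlated best with their own number. The block lowered the pooled SD of Gbp2b from 1.03 to 0.57 and of Alad from 0.76 to 0.54. Falls were also seen for Defb1, Gpnmb, Gsta2, Nnt (0.51 to 0.48) and Pttg1 (1.32 to 1.29). It raised that of Ccnb1ip1 from 0.69 to 0.79, of Wdfy1 from 0.52 to 0.59 and of Rpgrip1 from 0.69 to 0.72. With the replicate block 2 genes were called for BACE2 loss averaged (Rpgrip1 -1.94, adjusted p = 0.0132; Ccnb1ip1 1.77, adjusted p = 0.0314) and 0 in every other comparison. Low signal limits Ccnb1ip1 on arrays with BACE2.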
